A study of Homo sapiens with 22 samples.

Results

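The matrix metalloproteinase (MMP), ADAMTS and TIMP genes are the secreted and membrane-bound metalloproteinases of the extracellular matrix and their tissue inhibitors. They were picked by symbol alone: an MMP number with an optional A or B, an ADAMTS number, or TIMP1 to TIMP4. The rule found 47 genes among the 35237 rows of the count table, of which 24 were MMP genes, 19 ADAMTS genes and 4 TIMP genes. Their expression was followed in 2 established human neuroblastoma cell lines, SK-N-AS and GIMEN, both labelled as mesenchymal (MES), during treatment with PP121, a kinase inhibitor, and bufalin, a cardiac glycoside. The series title describes the regimen as inducing differentiation. Untreated SK-N-AS cells were kept in DMEM with 10% serum (4 libraries). The S1D4 group received 5 µM PP121 in DMEM with 1% serum for 4 days (4 libraries). S1D4 cells then received 5 µM PP121 and 100 nM bufalin in Neurobasal medium, for which the labels list no serum, for 4 days (S2D4, 4 libraries) or 30 days (S2D30, 4 libraries). Untreated GIMEN cells were kept in RPMI with 10% serum (3 libraries), and the GIMEN D30 group received 2.5 µM PP121 and 10 nM bufalin in RPMI with 1% serum for 30 days (3 libraries). Drug, serum, medium and time in culture changed together, so their parts cannot be told apart, and each group stands for 1 cell line.

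MMPs are zinc-dependent proteases made as inactive proenzymes, which other proteases cut to switch them on. Collagenases open fibrillar collagen, gelatinases degrade denatured collagen and basement membrane collagen, stromelysins cut many matrix proteins and can activate other MMPs, and membrane-type MMPs act at the cell surface. ADAMTS proteases are secreted and bind the matrix, where different members cut proteoglycans such as versican, trim procollagens or cleave von Willebrand factor. The TIMPs bind the active site of these enzymes and block it. All values below are RNA levels, so proenzyme activation, secretion and inhibition were not measured.

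The libraries held 16456484 to 37506800 counts. Levels are given as CPM, counts per 1000000 counts of the scaled library, and every fold change is a log2 value from edgeR's quasi-likelihood test with its standard error (SE) and a p-value adjusted after Benjamini and Hochberg over all genes tested. A gene passed the test at an adjusted p under 0.05. The labels do not say whether libraries of a group came from separate cultures, so these p-values measure the spread between the libraries, which may be technical. The detection floor was 3 counts, and a group counts as at the floor for a gene where no library exceeded it. S2D4 replicate 4 stood apart: its mean correlation with the other 3 libraries of its group was 0.9639, against 0.9808 to 0.9813 for those 3. Values that involve S2D4 are therefore given also without it where a call was gained or lost or the fold moved by over 1.5 times. All 12 markers of the mesenchymal state were above the floor in untreated SK-N-AS cells, and so were all 10 markers of the adrenergic state, while untreated GIMEN cells had the adrenergic markers PHOX2A, TH and DDC at 0 and 1 mesenchymal marker, NOTCH2, at the floor. The summed level of the mesenchymal markers went from a range of 969 to 1600.0 CPM in untreated SK-N-AS to a range of 3754 to 4485 CPM in S2D30, and that of the adrenergic markers from a range of 1774 to 2009.6 to a range of 219.7 to 271 CPM. In GIMEN the mesenchymal sum went from a range of 7049.9 to 7305 to a range of 4069 to 5050.1 CPM. Most of each mesenchymal sum was VIM, which in GIMEN had 5206 to 5473 CPM untreated and 2240.4 to 2970.1 in D30. The list did not move as 1: in GIMEN D30 CD44, WWTR1, YAP1, IL13RA1 and NOTCH2 lay above their untreated ranges, among them CD44 at 804 to 1128 against 617 to 643 CPM, and in S2D30 TWIST1 lay below its untreated range. The 5 endothelial and 5 Schwann cell markers summed to at most 32.4 and 9.22 CPM in any library. The part of these shifts in the members' values was not tested. Fewer cells of a state and less RNA per cell cannot be told apart in bulk libraries.

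Enough counts for a test were found for 34 of the 47 members in SK-N-AS and for 25 in GIMEN. In S1D4 against untreated cells, 9 tested members rose and 6 fell, where 17.6% and 22.4% of all 15810 tested genes did so. The S2D4 group had 12 members higher and 12 lower than untreated cells, against 30.9% and 32.2% of all genes. Without S2D4 replicate 4 these counts became 11 and 15, against 31.2% and 34.3%. After 30 days, 11 members were higher and 16 lower, against 33.8% and 36.5%. In the step from S1D4 to S2D4, 11 rose and 12 fell, against 28.3% and 26.8%, and without replicate 4 these were 11 and 14, against 28.9% and 29.3%. From S2D4 to S2D30, 10 rose and 11 fell, against 24.4% and 26.9%, or 12 and 11 without replicate 4, against 26.5% and 27.2%. In GIMEN D30 against untreated, 8 of 25 rose and 7 fell, against 35.5% and 36% of 13517 genes. With a log2 fold change of at least 1 in size also asked, members higher and lower than untreated numbered 7 and 5 in S1D4 (6.03% and 6.26% of all genes), 11 and 10 in S2D4 (13.3% and 15.7%), 11 and 15 in S2D30 (17.8% and 19.2%) and 6 and 5 in GIMEN D30 (11.8% and 12.9%). The steps gave 7 and 12 from S1D4 to S2D4 (8.89% and 12.8%) and 8 and 9 from S2D4 to S2D30 (10.1% and 9.53%). The median log2 fold change of the tested members was 0.09 in S1D4, 0.09 in S2D4, -0.48 in S2D30 and 0.36 in GIMEN D30, and the medians of all tested genes were -0.01, -0.02, -0.03 and 0.02. The 3 SK-N-AS comparisons with untreated cells share those 4 control libraries. A large part of all genes changed in these comparisons. The members were not tested as a set, and the results below rest on single genes.

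Among the collagenases, MMP1, the interstitial collagenase, rose at each SK-N-AS step and became one of the most abundant RNAs of the cells. It had 1.69, 1.31, 0.509 and 0.443 CPM in the 4 untreated libraries and 28.8, 26.7, 31.6 and 34.3 CPM in S1D4. It reached 1773, 1680.1, 1604 and 60.7 CPM in S2D4 and 9551, 10936, 11351 and 8992 CPM in S2D30. The 4 groups did not overlap, and S2D4 replicate 4 lay nearer to S1D4 than to the other S2D4 libraries. Against untreated cells the log2 fold change was 4.89 ± 0.76 (SE, adjusted p = 9.89e-05) in S1D4, 10.28 ± 0.89 (SE, adjusted p = 4.03e-08) in S2D4 and 13.28 ± 0.97 (SE, adjusted p = 2.66e-09) in S2D30, and without S2D4 replicate 4 the S2D4 value was 10.67 (adjusted p = 1.54e-14). Each step was itself called, with 5.40 ± 0.69 (SE, adjusted p = 5.95e-06) from S1D4 to S2D4 and 3.0 ± 0.61 (SE, adjusted p = 0.000609) from S2D4 to S2D30, and without replicate 4 these were 5.79 (adjusted p = 2.86e-12) and 2.60 (adjusted p = 1.86e-08). In S2D30 libraries MMP1 alone took 0.891 to 1.07% of all counts and ranked 2 or 3 among all genes, after ranks of 12709 to 14676 in untreated cells. Its share of all MMP counts was 0.0726 to 0.265% in untreated libraries and 91.2 to 92% in S2D30. GIMEN libraries had 2.66, 4.05 and 3.8 CPM untreated and 509.9, 204 and 249.8 CPM in D30, where replicate 1 was the highest and no treated library overlapped an untreated one. That rise was 6.52 ± 0.38 (SE, adjusted p = 3.58e-08), and MMP1 took 8.6 to 11.4% of the MMP counts there.

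The other collagenases did not follow MMP1. MMP8, the neutrophil collagenase, reached at most 0.226 CPM in any library and was tested in neither line. MMP13, collagenase 3, was at the floor in all 4 SK-N-AS groups. In untreated GIMEN it had 0.653, 0.89 and 1.03 CPM and in D30 it had no count in any library, which makes it at least 5.17-fold lower against a floor of 3 counts per library (adjusted p = 0.000107, edgeR). MMP13 thus fell from a low level in GIMEN, while MMP1 rose in both lines.

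Of the stromelysins, MMP3 and MMP10 rose with the same steps as MMP1 in SK-N-AS, from levels at or near 0. MMP10, stromelysin-2, had 0.0527, 0, 0.102 and 0.0316 CPM untreated and 1.13, 0.931, 0.526 and 0.876 CPM in S1D4. In S2D4 it had 32.9, 30.7, 31.3 and 1.23 CPM and in S2D30 205, 198, 216 and 179.7 CPM. All 4 groups were separate from each other, and S2D4 replicate 4 again lay just above the S1D4 libraries. Untreated cells were at the floor, so MMP10 was at least 206-fold higher in S2D4 (adjusted p = 9.84e-07) and at least 1715-fold higher in S2D30 (adjusted p = 1.08e-08). The S1D4 rise, at least 7.42-fold (adjusted p = 0.0414), lost its call when any of 7 single untreated or S1D4 libraries was left out, with adjusted p from 0.0621 to 0.095. The steps were 4.77 ± 0.68 (SE, adjusted p = 2.04e-05) from S1D4 to S2D4 and 3.07 ± 0.53 (SE, adjusted p = 0.000142) from S2D4 to S2D30, and without S2D4 replicate 4 they were 5.18 (adjusted p = 2.7e-13) and 2.66 (adjusted p = 4.71e-11).

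MMP3, stromelysin-1, which can activate pro-MMP1, had 0, 0.326, 0 and 0.0316 CPM untreated and 0.584, 0.343, 0.307 and 0.184 CPM in S1D4. It had 31.8, 24.2, 22.3 and 2.03 CPM in S2D4 and 254, 181, 185 and 251 CPM in S2D30. Only untreated replicate 2 reached the S1D4 range, and both stage 2 groups lay above all earlier libraries. The log2 fold change against untreated cells was 7.99 ± 0.89 (SE, adjusted p = 8.13e-07) in S2D4 and 11.44 ± 0.87 (SE, adjusted p = 4.42e-09) in S2D30. These values rest on untreated replicate 2, without which they were 10.23 (adjusted p = 3.11e-06) and 13.68 (adjusted p = 3.72e-08). In S1D4 the change did not pass the test (2.22 ± 1.57 SE, adjusted p = 0.282), but passed without S2D4 replicate 4 (2.22, adjusted p = 0.0274). GIMEN behaved otherwise for both genes: MMP10 had 1.4, 2.4 and 1.39 CPM untreated and 4.52, 1.69 and 1.15 CPM in D30, and MMP3 had 0 in the 3 untreated libraries and 0.104, 0.338 and 0.173 CPM in D30. The MMP10 groups overlapped (0.51 ± 0.45 SE, adjusted p = 0.33), the direction turned without D30 replicate 1 (-0.28, adjusted p = 0.508), and MMP3 had too few counts there for a test.

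MMP10, MMP1 and MMP3 are direct neighbours on chromosome 11. RefSeq lists the protein-coding genes there in the order MMP7, MMP20, MMP27, MMP8, MMP10, MMP1, MMP3, MMP12 and MMP13. The genes beside the 3 that rose stayed low: MMP8 and MMP12, the macrophage metalloelastase, reached at most 0.226 and 0.264 CPM in S2D30, and MMP7, MMP20 and MMP27 at most 0.135, 0.179 and 0 CPM. MMP12 had 0 CPM in every untreated and S1D4 library, so its few counts came at stage 2, too few for a test. MMP10 and MMP3 share few 75-base words (1.27% and 1.07% of their GENCODE exon sequence), and 7.61% of the MMP1 exon bases lie opposite exons of WTAPP1. Whether the authors' counting used the read strand is not given in the sources used here.

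**Figure D1:**
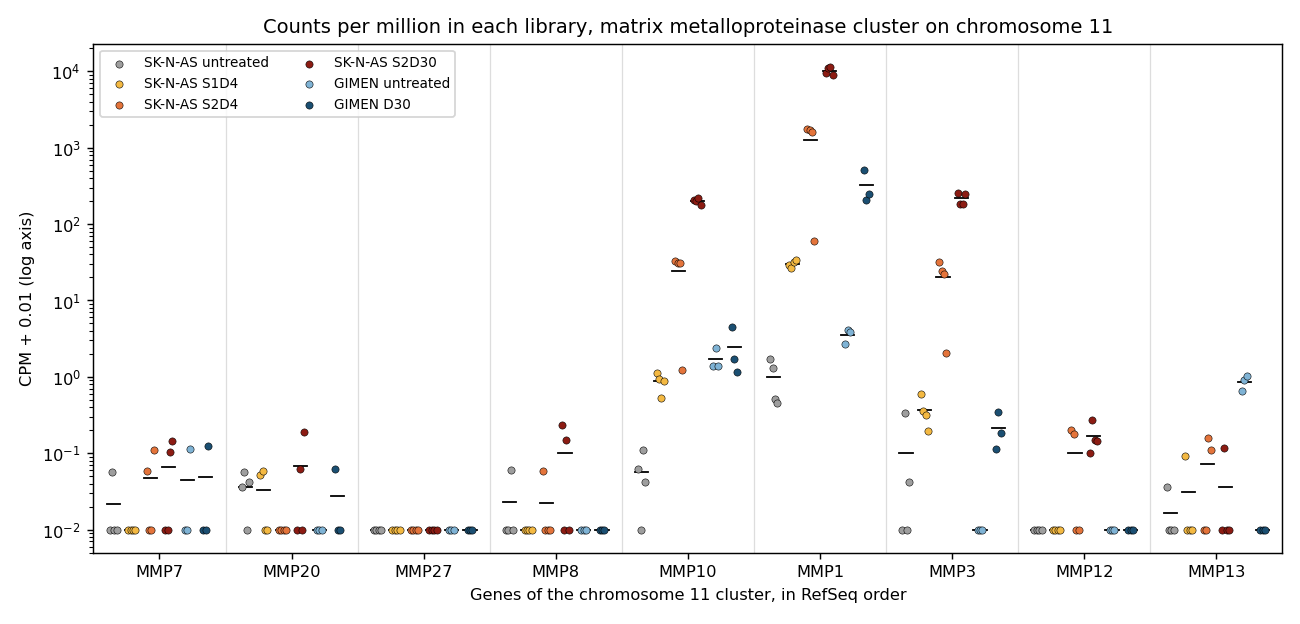
Levels in CPM (with 0.01 added, log axis) of the 9 MMP genes of the chromosome 11 cluster in each library, coloured by group, with bars at group means. MMP10, MMP1 and MMP3 rise together in SK-N-AS up to 8992 to 11351 CPM for MMP1 in S2D30, with S2D4 replicate 4 below the other 3 S2D4 libraries, while the outer genes of the cluster stay under 2 CPM.

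Upstream sequence was available for 27 of the 47 members, from RefSeq on GRCh38.p14. Among the cluster genes these were MMP7, MMP8, MMP10, MMP20 and MMP27. The sequences of MMP10, which rose, and of 2 neighbours that stayed low are shown with that of TIMP1, a choice made after their values were seen. Each holds the 250 bases before the annotated gene start, 5′ to 3′ on the gene's strand, with matches to TGANTCA in capitals. This 7-letter pattern takes in TGAGTCA, a core site bound by AP-1 transcription factors, which are known regulators of several MMP promoters, and is wider than it. It was searched on both strands and reads the same on each.
MMP10 (chr11:102780629-102780878, minus strand): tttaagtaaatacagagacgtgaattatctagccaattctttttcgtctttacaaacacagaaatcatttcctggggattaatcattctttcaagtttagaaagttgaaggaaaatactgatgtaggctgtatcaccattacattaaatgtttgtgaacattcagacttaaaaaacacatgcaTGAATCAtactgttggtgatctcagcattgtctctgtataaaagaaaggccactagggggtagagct
MMP7 (chr11:102530748-102530997, minus strand): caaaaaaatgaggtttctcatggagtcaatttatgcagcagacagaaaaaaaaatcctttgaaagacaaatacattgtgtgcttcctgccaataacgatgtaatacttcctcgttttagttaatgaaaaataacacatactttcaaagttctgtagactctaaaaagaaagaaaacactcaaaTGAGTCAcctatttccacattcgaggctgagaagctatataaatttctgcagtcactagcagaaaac
MMP8 (chr11:102724955-102725204, minus strand): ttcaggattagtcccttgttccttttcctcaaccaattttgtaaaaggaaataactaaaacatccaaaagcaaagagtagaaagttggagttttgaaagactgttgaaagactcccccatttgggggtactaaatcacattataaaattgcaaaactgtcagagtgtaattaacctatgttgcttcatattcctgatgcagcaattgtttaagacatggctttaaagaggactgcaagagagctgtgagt
TIMP1 (chrX:47582186-47582435, plus strand): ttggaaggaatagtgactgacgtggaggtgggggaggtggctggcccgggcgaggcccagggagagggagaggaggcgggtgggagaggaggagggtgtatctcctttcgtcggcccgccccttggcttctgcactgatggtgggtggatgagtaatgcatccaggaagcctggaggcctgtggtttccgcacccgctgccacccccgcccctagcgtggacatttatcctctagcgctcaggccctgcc
MMP10 and MMP7 each had 1 match, which began 67 bases before the start in both genes, and MMP8 and TIMP1 had none in this window. Among all 35116 upstream windows of the same length, 2308 (6.573%) held a match, and among the 27 members 4 did (ADAMTS12, MMP10, MMP20 and MMP7). The letters differed, with TGAATCA in MMP10 and TGAGTCA in MMP7. A match is a description of the letters and not of binding.

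MMP11, stromelysin-3, which lies elsewhere in the genome, went the other way. It had 17.7, 17.5, 19 and 17.1 CPM untreated and 19.3, 16.1, 19.9 and 22 CPM in S1D4, and then 4.53, 4.43, 4.49 and 3.5 CPM in S2D4 and 5.52, 6.29, 5.46 and 6.15 CPM in S2D30. Both stage 2 groups lay below all earlier libraries. The change was -2.08 ± 0.12 (SE, adjusted p = 5.71e-10) in S2D4 and -1.61 ± 0.12 (SE, adjusted p = 4.44e-09) in S2D30 against untreated cells, with a small part regained from S2D4 to S2D30 (0.47 ± 0.13 SE, adjusted p = 0.00485). In GIMEN it had 4.71, 5.43 and 5.39 CPM untreated and 8.99, 5.75 and 5.12 CPM in D30, which overlapped and did not pass the test (0.36 ± 0.21 SE, adjusted p = 0.144, and 0.52 (adjusted p = 0.0403) without D30 replicate 3).

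The gelatinases behaved differently from each other. MMP9, gelatinase B, had 2.66, 2.89, 1.43 and 1.17 CPM before treatment of SK-N-AS, and 22.8, 30.9, 6.36 and 6.82 CPM at S1D4. It had 3.52, 4.93, 4.1 and 6.13 CPM in S2D4 and 33.2, 30.4, 24.9 and 27.5 CPM in S2D30. S1D4 replicates 1 and 2 were far above replicates 3 and 4, and the S2D30 libraries were uniformly high. MMP9 thus rose in S1D4 (3.03 ± 0.46 SE, adjusted p = 7.09e-05), fell from S1D4 to S2D4 (-1.83 ± 0.43 SE, adjusted p = 0.00174) and rose again to S2D30 (2.63 ± 0.43 SE, adjusted p = 9.34e-05), which left it 3.82 ± 0.47 (SE, adjusted p = 1.42e-06) above untreated cells. Its rise in S2D4 against untreated (1.20 ± 0.46 SE, adjusted p = 0.0307) lost its call without untreated replicate 3 or 4 or without S2D4 replicate 2 or 4, with adjusted p from 0.0522 to 0.0878. In GIMEN it was at the floor untreated and had 1.61, 0.846 and 0.748 CPM in D30, at least 7.49-fold higher (adjusted p = 0.000336, edgeR). Of its exon bases, 18.4% lie opposite SLC12A5-AS1.

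MMP9 is also made by white blood cells, so their 10 markers were summed. The sum was 182 to 224 CPM before treatment of SK-N-AS, 82.3 to 102 at S1D4, 106 to 164 in S2D4 and 107 to 161 in S2D30, and 89.1 to 102 and 162 to 367 CPM in untreated and treated GIMEN. Most of it was PTPRC in untreated SK-N-AS (169 to 214 CPM, against 0.543 to 1.4 in S2D30) and CD68 in S2D30 (97.1 to 151 CPM, against 8.35 to 18.3 untreated). In GIMEN it was CD68 in D30 (155 to 359 CPM). Other myeloid markers were higher in S2D30 than before treatment. CD163 had 0 to 0.28 CPM untreated and 2.17 to 3.17 in S2D30, CSF1R 0.14 to 0.506 and 1.48 to 2.33, CD14 0.822 to 1.96 and 2.17 to 4.62, and ITGAM 0.0316 to 0.0527 and 0.106 to 0.449. MMP9 also rose in S1D4, where CD163 had 0 to 0.392 CPM and CSF1R 0.375 to 0.686. There CD14 had 1.25 to 3.13 CPM and ITGAM 0 to 0.25. MMP9 fell from S1D4 to S2D4, where CD163 had 0.0488 to 0.3 CPM and CSF1R 0.897 to 1.22. There CD14 had 1.4 to 2.78 CPM and ITGAM 0.0333 to 0.0975. CD68 had 27.0 to 32.2 CPM in S1D4 and 77.9 to 138 in S2D4. In GIMEN CSF1R had 8.67 to 11.8 CPM untreated and 3.66 to 6.08 in D30, CD163 0.133 to 0.36 and 0.395 to 0.69, CD14 0 to 0.133 and 0.104 to 0.575, and ITGAM 0.311 to 0.668 and 0.831 to 0.902. CD3E had no count in any SK-N-AS library, LYZ stayed under 1 CPM in every library, and MPO was at the floor in all 6 groups. The part of these markers in the MMP9 values was not tested.

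MMP2, gelatinase A, had the highest level per kilobase of exon of the MMP RNAs in both lines before treatment. SK-N-AS libraries had 389, 350.3, 389 and 346 CPM untreated and 277, 263, 339 and 333 CPM in S1D4, then 331, 333, 346 and 723 CPM in S2D4 and 331, 490.3, 458 and 284 CPM in S2D30. S1D4 libraries lay below all untreated ones, S2D4 replicate 4 was the highest, and S2D30 spread over both sides of the untreated range. No comparison within SK-N-AS passed the test (S2D30 against untreated 0.09 ± 0.23 SE, adjusted p = 0.75), although the step from S1D4 to S2D4 (0.52 ± 0.23 SE, adjusted p = 0.0637) passed without S2D4 replicate 1, 2 or 3, with adjusted p from 0.0371 to 0.0456. GIMEN libraries fell from 2353, 2322 and 2323 CPM to 1433, 869 and 882 CPM, with D30 replicate 1 between the untreated libraries and the other 2. The groups did not overlap, and the fall passed the test (-1.14 ± 0.16 SE, adjusted p = 6.19e-05).

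The membrane-type MMPs split in SK-N-AS. MMP14, which activates pro-MMP2 at the cell surface, had 82.4, 76.8, 114 and 105 CPM untreated, 68.4, 66.1, 97 and 97 in S1D4, 56.9, 66.8, 63.5 and 85.3 in S2D4 and 32.7, 56.1, 54.9 and 30.2 in S2D30. Every S2D30 library lay below every untreated one, with replicates 1 and 4 lowest. In S2D4 the change was -0.47 ± 0.21 (SE, adjusted p = 0.0607), and without replicate 4 it was -0.60 (adjusted p = 0.0223). It fell over the whole course (-1.12 ± 0.21 SE, adjusted p = 0.000175), while the step from S2D4 to S2D30 (-0.65 ± 0.21 SE, adjusted p = 0.0169) was no longer called without S2D30 replicate 1 or replicate 4 (adjusted p of 0.0615 and 0.0619). GIMEN had 1272, 1349.8 and 1288 CPM untreated and 2449.9, 1231 and 1164 CPM in D30. Replicate 1 lay far above the other treated libraries, which were below all untreated ones, and the change did not pass the test (0.31 ± 0.22 SE, adjusted p = 0.235, and -0.12 (adjusted p = 0.1) without D30 replicate 1, but 0.50 (adjusted p = 0.0468) without replicate 3).

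MMP15, another membrane-type enzyme, dropped sharply at stage 2. It had 81.9, 85.4, 57.5 and 61 CPM untreated, 53.1, 48.6, 35.4 and 33 in S1D4, 4, 5.21, 4.58 and 4.87 in S2D4 and 5.34, 6.19, 5.41 and 4.98 in S2D30. The stage 2 groups overlapped each other and lay far below the earlier libraries, replicate 4 of S2D4 included. The fall was -0.75 ± 0.16 (SE, adjusted p = 0.00124) in S1D4, -3.94 ± 0.18 (SE, adjusted p = 3.33e-11) in S2D4 and -3.71 ± 0.18 (SE, adjusted p = 2.09e-11) in S2D30. In GIMEN it rose from 2.8, 1.74 and 2 CPM to 3.12, 4.4 and 3.8 CPM (0.79 ± 0.25 SE, adjusted p = 0.0133), a call that was lost without untreated replicate 2 or D30 replicate 2 (adjusted p of 0.0598 and 0.0535).

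MMP17, which is anchored by a lipid tail, fell in S2D30, and S2D4 replicate 4 stood apart from its group. It had 8.06, 8.81, 10.5 and 10.2 CPM untreated and 15.5, 16.7, 22.1 and 23 in S1D4, then 2.65, 2.91, 3.71 and 20.3 in S2D4 and 1.63, 1.43, 1.26 and 0.897 in S2D30. S2D4 replicate 4 sat inside the S1D4 range, and the other 3 lay below every untreated library. With all libraries the S2D4 change did not pass the test (-0.31 ± 0.48 SE, adjusted p = 0.584), and without replicate 4 it was -1.60 (adjusted p = 2.32e-06). The S1D4 change, 1.04 ± 0.47 (SE, adjusted p = 0.0908), also passed only without that library (1.04, adjusted p = 6.22e-05), since the model shares 1 estimate of the spread. The step from S1D4 to S2D4 (-1.36 ± 0.48 SE, adjusted p = 0.0239) was lost without S1D4 replicate 3 or 4 or S2D4 replicate 1, 2 or 3 (adjusted p from 0.0508 to 0.0709), and without S2D4 replicate 4 it was -2.64 (adjusted p = 1.16e-08). By S2D30 MMP17 had fallen (-2.84 ± 0.55 SE, adjusted p = 0.000206). GIMEN showed 6.9, 5.43 and 9.66 CPM untreated and 7.95, 11.4 and 9.14 CPM in D30, which overlapped (0.38 ± 0.21 SE, adjusted p = 0.12), a value that passed without untreated replicate 3 or D30 replicate 1 (adjusted p of 0.0178 and 0.0487).

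MMP16 and MMP24 are known from neural tissue. MMP16 had 18.4, 20.4, 25.1 and 44.3 CPM untreated, 12.8, 13.6, 13 and 13.8 in S1D4, 39.3, 40.0, 42.6 and 35.8 in S2D4 and 37.4, 34.3, 31.7 and 32.9 in S2D30. It fell in S1D4, where all libraries were below the untreated ones (-1.03 ± 0.20 SE, adjusted p = 0.000669, and -0.67 (adjusted p = 0.000131) without the high untreated replicate 4), and rose again from S1D4 to S2D4 (1.57 ± 0.20 SE, adjusted p = 6.66e-06). S2D4 and S2D30 overlapped the untreated range. The S2D4 call against untreated (0.54 ± 0.20 SE, adjusted p = 0.0232) was lost without untreated replicate 1, 2 or 3 or without S2D4 replicate 3 (adjusted p from 0.0551 to 0.0796), and without untreated replicate 4 it was 0.91 (adjusted p = 2.22e-06). In S2D30 the change was 0.33 ± 0.20 (SE, adjusted p = 0.139), and 0.70 (adjusted p = 2.4e-05) without untreated replicate 4. In GIMEN MMP16 fell from 44.5, 45.6 and 43.7 CPM to 39.8, 34.7 and 38.2 CPM (-0.25 ± 0.07 SE, adjusted p = 0.00803).

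MMP24 had 12.4, 11.3, 5.14 and 3.45 CPM before treatment of SK-N-AS, 7.67, 8.91, 4.78 and 5.99 at S1D4, 7.13, 8.29, 6.39 and 7.77 in S2D4 and 3.26, 2.7, 2.43 and 3.72 in S2D30. Untreated replicates 1 and 2 lay above replicates 3 and 4, and untreated replicate 4 overlapped S2D30. It fell by S2D30 (-1.41 ± 0.33 SE, adjusted p = 0.00118) and in GIMEN, from 6.34, 6.05 and 6.16 to 4.42, 3.89 and 2.36 CPM (-0.79 ± 0.21 SE, adjusted p = 0.00551). Of its exon bases, 21.8% lie opposite other genes, MMP24OS among them, whose reads cannot be told apart without strand. MMP25, known from leukocytes, stayed between 1.9 and 3.36 CPM in all 22 libraries and passed no test within a line, and 35.2% of its exon bases lie opposite MMP25-AS1.

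Of the remaining MMPs, MMP23B fell and MMP28, epilysin, was all but lost in SK-N-AS. MMP23B had 17.3, 24.9, 17.8 and 15.3 CPM untreated, 20.3, 26.1, 16.1 and 16.3 in S1D4, 7.81, 7.85, 8.05 and 6.03 in S2D4 and 2.4, 2.91, 3.03 and 3.5 in S2D30. S1D4 overlapped the untreated range and each stage 2 group lay below all before it. The fall was -1.34 ± 0.18 (SE, adjusted p = 8.84e-06) in S2D4 and -2.66 ± 0.20 (SE, adjusted p = 3.61e-09) in S2D30. GIMEN had 1.12, 0.623 and 1.08 CPM untreated and 1.3, 2.09 and 0.863 CPM in D30, which overlapped (0.59 ± 0.39 SE, adjusted p = 0.19). Its copy MMP23A shares 35% of the 75-base words of MMP23B and is listed at 0 in every library, so the authors' counting could have split or dropped shared reads. MMP28 had 2.56 to 3.31 CPM untreated, 2.79 to 4.34 in S1D4, 0.0975 to 0.28 in S2D4 and 0 to 0.0934 in S2D30. That is a fall of -4.04 ± 0.34 (SE, adjusted p = 3.37e-08) in S2D4 and at least 20.2-fold lower in S2D30 (adjusted p = 2.3e-09). MMP19 rose from a range of 0 to 0.28 to a range of 1.17 to 1.59 CPM in S2D30 (3.92 ± 0.66 SE, adjusted p = 5.25e-05, and 5.14 (adjusted p = 1.12e-05) without untreated replicate 2), with 17.4% of its exon bases opposite TMEM198B.

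Among the ADAMTS genes, the versican-cleaving ADAMTS1 and ADAMTS5, which are neighbours on chromosome 21, both rose in SK-N-AS. ADAMTS1 had 17.1, 18.7, 11.4 and 14.6 CPM untreated, 29.6, 28.4, 26.1 and 30.6 in S1D4, 50.6, 48.1, 47.8 and 39.7 in S2D4 and 159, 131, 128 and 177 in S2D30. No groups overlapped, and S2D4 replicate 4 was only slightly below its group. The rise was 0.89 ± 0.14 (SE, adjusted p = 0.000123) in S1D4, 1.59 ± 0.14 (SE, adjusted p = 6.9e-08) in S2D4 and 3.26 ± 0.15 (SE, adjusted p = 1.15e-11) in S2D30. GIMEN showed a rise too, from 18.7, 19.1 and 17.3 CPM to 116, 137 and 140.3 CPM (2.84 ± 0.09 SE, adjusted p = 2.25e-10).

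ADAMTS5 had 0.369, 0.0466, 0.305 and 0.411 CPM untreated, 0.709, 0.441, 0.57 and 0.553 in S1D4, 20.9, 18.2, 20.3 and 2.43 in S2D4 and 73.3, 93.7, 80.1 and 62 in S2D30. S2D4 replicate 4 lay between S1D4 and the rest of S2D4, and S2D30 was above all other libraries. The change was 5.64 ± 0.59 (SE, adjusted p = 3.81e-07) in S2D4 and 7.97 ± 0.60 (SE, adjusted p = 4.12e-09) in S2D30 against untreated, and without S2D4 replicate 4 the S2D4 value was 6.0 (adjusted p = 2.32e-12). In S1D4 it was 0.91 ± 0.79 (SE, adjusted p = 0.39) with all libraries and 0.90 (adjusted p = 0.0475) without that one. ADAMTS5 had no count in any of the 6 GIMEN libraries, treated or not, while its neighbour ADAMTS1 was expressed in both groups.

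Other proteoglycan-cleaving members fell or passed no test against untreated cells in SK-N-AS. ADAMTS4 had 10.7, 9.93, 9.21 and 12.3 CPM untreated, 5.76, 4.95, 3.73 and 4.29 in S1D4, 1.88, 2.75, 1.95 and 2.03 in S2D4 and 2.22, 1.85, 1.35 and 2.74 in S2D30. It fell in S1D4 and again in S2D4, then levelled, with S2D4 and S2D30 overlapping. The change was -1.17 ± 0.20 (SE, adjusted p = 0.000251) in S1D4, -2.29 ± 0.21 (SE, adjusted p = 1.07e-07) in S2D4 and -2.36 ± 0.22 (SE, adjusted p = 4.43e-08) in S2D30. GIMEN had 0.606, 0.845 and 0.822 CPM untreated and 1.14, 0.958 and 1.32 CPM in D30 (0.59 ± 0.32 SE, adjusted p = 0.123). ADAMTS15 fell from a range of 1.48 to 2.1 to a range of 0.135 to 0.159 CPM in S2D30, at least 12.5-fold (adjusted p = 3.7e-06). ADAMTS9 was high throughout, with 163, 169, 139.9 and 214 CPM untreated, 154, 172, 104 and 92.4 in S1D4, 159, 159, 163 and 259.9 in S2D4 and 168, 154, 139.6 and 162 in S2D30. S2D4 replicate 4 was the highest library and S1D4 replicates 3 and 4 the lowest. It passed no test against untreated cells (S2D30 -0.14 ± 0.20 SE, adjusted p = 0.549), and its call from S1D4 to S2D4 (0.51 ± 0.20 SE, adjusted p = 0.0398) was lost without S2D4 replicate 4 (0.30, adjusted p = 0.161) and without S1D4 replicate 3 or 4. GIMEN had 0, 0.133 and 0.257 CPM untreated and 0.675, 0.846 and 0.575 CPM in D30, a rise at a very low level (2.41 ± 0.65 SE, adjusted p = 0.00579, and 3.24 (adjusted p = 0.00543) without untreated replicate 3).

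**Figure D2:**
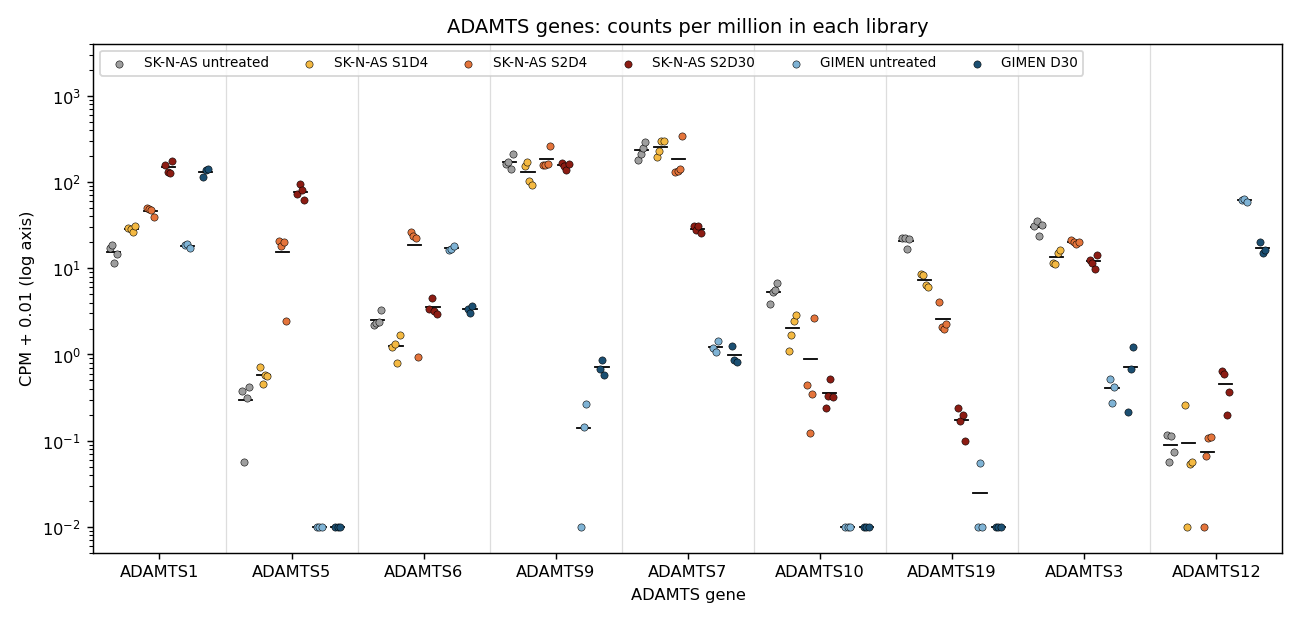
Levels in CPM (with 0.01 added, log axis) of 9 ADAMTS genes in each library, coloured by group, with bars at group means. ADAMTS1 and ADAMTS5 rise step by step in SK-N-AS while ADAMTS10 and ADAMTS19 fall, ADAMTS6 peaks in 3 of the 4 S2D4 libraries, and ADAMTS12 is found mainly in GIMEN (59.1 to 63.9 CPM untreated).

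The procollagen-trimming members fell by S2D30 where they were called. ADAMTS3, which also processes a lymphatic growth factor, had 31.2, 35.1, 23.6 and 31.8 CPM untreated, 11.4, 11.3, 15.1 and 16.2 in S1D4, 21.5, 20.1, 19.2 and 20.0 in S2D4 and 12.6, 11.4, 9.76 and 14.2 in S2D30. All treated libraries lay below all untreated ones, and S2D4 lay between. The change was -1.17 ± 0.15 (SE, adjusted p = 1.55e-05) in S1D4, -0.59 ± 0.15 (SE, adjusted p = 0.00232) in S2D4 and -1.34 ± 0.15 (SE, adjusted p = 5.82e-07) in S2D30. GIMEN had 0.513, 0.267 and 0.411 CPM untreated and 0.208, 0.676 and 1.21 CPM in D30, which overlapped and was too low for a test. ADAMTS14 had 3.11, 4.99, 1.53 and 3.16 CPM untreated, 6.8, 8.33, 10.9 and 9.96 in S1D4, 4.91, 3.36, 3.66 and 14.9 in S2D4 and 0.905, 1.64, 1.17 and 1.08 in S2D30. Its highest library was S2D4 replicate 4, and the other S2D4 libraries fell within the untreated range. It rose in S1D4 (1.49 ± 0.42 SE, adjusted p = 0.00976) and fell by S2D30 against untreated cells (-1.42 ± 0.46 SE, adjusted p = 0.0114). The S2D30 and untreated libraries overlapped, with S2D30 replicate 2 at 1.64 CPM and untreated replicate 3 at 1.53. Its S2D4 call (1.08 ± 0.42 SE, adjusted p = 0.0334) was lost without S2D4 replicate 4 (0.31, adjusted p = 0.365) or without untreated replicate 1, 3 or 4. No GIMEN library had a count of ADAMTS14. ADAMTS2 stayed under 1 CPM in all libraries and fell in S2D4 (-2.62 ± 0.75 SE, adjusted p = 0.00634). The size of that fall is a fitted value near the floor. S2D4 replicates 1 to 3 had 0.132 ± 0.0704 CPM (SD, n = 3), where 3 counts correspond to 0.140 CPM. Its S2D30 value was -1.53 ± 0.67 (SE, adjusted p = 0.0516) with all libraries and -1.54 (adjusted p = 0.043) without S2D4 replicate 4.

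ADAMTS7 and ADAMTS12, which cleave cartilage oligomeric matrix protein, were each found mainly in 1 line. ADAMTS7 had 178, 213, 251 and 295 CPM untreated, 195, 231, 298 and 300.3 in S1D4, 131, 133, 143 and 342 in S2D4 and 30.5, 28.1, 31.3 and 25.7 in S2D30. The S2D30 libraries were far below all others, and S2D4 replicate 4 was the highest of all. It fell by S2D30 (-3.02 ± 0.28 SE, adjusted p = 6.44e-08), and in S2D4 the change was -0.32 ± 0.26 (SE, adjusted p = 0.294) with all libraries and -0.79 (adjusted p = 0.000401) without replicate 4. A pseudogene, ADAMTS7P3, shares 7.46% of its 75-base words. GIMEN libraries had 1.17, 1.07 and 1.44 CPM untreated and 1.25, 0.846 and 0.805 CPM in D30, which overlapped (-0.33 ± 0.32 SE, adjusted p = 0.373). ADAMTS12 had 61.8, 63.9 and 59.1 CPM in untreated GIMEN and 20.3, 15 and 16.1 CPM in D30, a fall without overlap (-1.84 ± 0.10 SE, adjusted p = 2.38e-08). In SK-N-AS it had 0.105, 0.0466, 0.102 and 0.0632 CPM untreated, 0.25, 0, 0.0439 and 0.0461 in S1D4, 0, 0.056, 0.0975 and 0.1 in S2D4 and 0.634, 0.582, 0.187 and 0.359 in S2D30, too low for a test there.

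ADAMTS13, the protease of von Willebrand factor, rose and then fell. It had 20.6, 33.4, 25.4 and 32.1 CPM untreated, 34.8, 45.8, 46.7 and 47.7 in S1D4, 16.6, 14.9, 16.3 and 9.63 in S2D4 and 17.6, 18.8, 17.8 and 16.2 in S2D30. S1D4 was the highest group and both stage 2 groups lay below all untreated libraries. The change was 0.65 ± 0.17 (SE, adjusted p = 0.00615) in S1D4, -0.96 ± 0.17 (SE, adjusted p = 0.000154) in S2D4 and -0.66 ± 0.17 (SE, adjusted p = 0.00273) in S2D30. In GIMEN it had 1.35, 1.33 and 1.03 CPM untreated and 0.779, 1.52 and 0.863 CPM in D30, which overlapped.

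ADAMTS6 and ADAMTS10, related members tied to microfibrils, moved apart. ADAMTS6 had 2.19, 2.33, 2.34 and 3.26 CPM untreated, 1.21, 1.32, 0.79 and 1.66 in S1D4, 26.5, 24, 22.5 and 0.933 in S2D4 and 3.4, 4.55, 3.17 and 2.96 in S2D30. It peaked in S2D4 replicates 1 to 3, whereas replicate 4 lay within the S1D4 range, and S2D30 was back near the untreated level. The S2D4 change was 2.86 ± 0.59 (SE, adjusted p = 0.000493) with replicate 4 and 3.26 (adjusted p = 4.14e-10) without it. From S2D4 to S2D30 it fell (-2.39 ± 0.58 SE, adjusted p = 0.00254), and the S2D30 change against untreated was 0.47 ± 0.59 (SE, adjusted p = 0.487), or 0.46 (adjusted p = 0.0398) without S2D4 replicate 4. In S1D4 the change was -1.03 ± 0.63 (SE, adjusted p = 0.214) and, without that library, -1.03 (adjusted p = 0.000827). GIMEN fell from 16.2, 16.6 and 18.1 to 3.33, 3.04 and 3.68 CPM (-2.34 ± 0.13 SE, adjusted p = 2.13e-08).

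ADAMTS10 had 3.79, 5.36, 5.55 and 6.7 CPM untreated, 1.08, 1.67, 2.41 and 2.86 in S1D4, 0.434, 0.112, 0.341 and 2.63 in S2D4 and 0.226, 0.317, 0.513 and 0.314 in S2D30. S1D4 lay below the untreated libraries, S2D4 replicate 4 lay within the S1D4 range, and the other S2D4 libraries overlapped S2D30. The change was -2.5 ± 0.58 (SE, adjusted p = 0.00125) in S2D4, or -4.12 (adjusted p = 2.82e-07) without replicate 4, and -3.94 ± 0.66 (SE, adjusted p = 4.65e-05) in S2D30. From S1D4 to S2D4 it was -1.08 ± 0.58 (SE, adjusted p = 0.126), and -2.71 (adjusted p = 5.25e-05) without that library. The S1D4 call (-1.41 ± 0.55 SE, adjusted p = 0.0494) was lost when any of 12 single libraries was left out, with adjusted p from 0.0531 to 0.126. No GIMEN library had a count of it.

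ADAMTS19 fell at every step. It had 22.3, 22.7, 16.6 and 21.9 CPM untreated, 8.55, 8.28, 6.41 and 6.04 in S1D4, 4.1, 2.07, 1.95 and 2.27 in S2D4 and 0.226, 0.159, 0.187 and 0.0897 in S2D30. Each group lay wholly below the one before it, and here S2D4 replicate 1 rather than replicate 4 stood above its group. The change was -1.51 ± 0.21 (SE, adjusted p = 3.11e-05), -3.01 ± 0.23 (SE, adjusted p = 8.14e-09) and -6.94 ± 0.31 (SE, adjusted p = 9.26e-12) in S1D4, S2D4 and S2D30. In GIMEN it had 0, 0.0445 and 0 CPM untreated and no count in D30. ADAMTS16, ADAMTS17 and ADAMTS18 were above untreated cells at low levels in S2D30: ADAMTS16 reached 0.212 to 0.583 CPM (1.67 ± 0.54 SE, adjusted p = 0.0113), ADAMTS17 reached 1.48 to 2.29 CPM (1.13 ± 0.32 SE, adjusted p = 0.0044), and ADAMTS18 reached 1.26 to 1.95 CPM, at least 13.5-fold above untreated cells (adjusted p = 1.31e-05). ADAMTS16 and ADAMTS17 had been called higher already in S1D4, at 2.23 and 1.31, and ADAMTS17 and ADAMTS18 were called higher in S2D4. ADAMTS17 rose in GIMEN as well, from a range of 0.089 to 0.205 to a range of 0.675 to 1.78 CPM (3.17 ± 0.55 SE, adjusted p = 0.000325), and ADAMTS20 fell there from a range of 0.565 to 0.979 to a range of 0 to 0.364 CPM (-1.55 ± 0.64 SE, adjusted p = 0.0482), a call lost when any library but D30 replicate 1 was left out.

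The inhibitors also went separate ways. TIMP1, a broad inhibitor of secreted MMPs, had 179, 141, 137 and 83.4 CPM untreated and 537, 476, 419.5 and 414 CPM in S1D4, then 2046, 1959.9, 2032 and 1738 CPM in S2D4 and 3718, 3604, 3857 and 3559.8 CPM in S2D30. The 4 groups were fully separate, and S2D4 replicate 4 stayed with its group. TIMP1 rose by 1.77 ± 0.17 (SE, adjusted p = 8.47e-07) in S1D4, 3.85 ± 0.18 (SE, adjusted p = 4.07e-11) in S2D4 and 4.77 ± 0.19 (SE, adjusted p = 2.18e-12) in S2D30 against untreated cells, and each of the later steps was called (2.07 ± 0.17 SE, adjusted p = 4.65e-08 and 0.92 ± 0.16 (SE, adjusted p = 0.00018)). Its rank among all genes was between 987 and 2846 in untreated libraries and between 10 and 13 in S2D30. In GIMEN it rose from 671, 699.7 and 683 CPM to 1653, 1558 and 1456 CPM (1.18 ± 0.07 SE, adjusted p = 4.4e-08).

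TIMP2, which besides inhibiting MMPs takes part in the activation of pro-MMP2 by MMP14, had 269, 259, 237 and 233 CPM untreated, 202, 191, 194 and 189 in S1D4, 242, 229, 223 and 514 in S2D4 and 283, 310.3, 311 and 268 in S2D30. S1D4 lay below the untreated libraries, and replicate 4 of S2D4 lay above every other SK-N-AS library. No change against untreated cells passed the test (S2D30 0.23 ± 0.20 SE, adjusted p = 0.305), except that without S2D4 replicate 4 the S1D4 and S2D30 changes did, at -0.36 (adjusted p = 0.000324) and 0.23 (adjusted p = 0.00574). The step from S1D4 to S2D4 was 0.64 ± 0.20 (SE, adjusted p = 0.0121) and, without that library, 0.25 (adjusted p = 0.00688). In a model of only the compared groups it did not pass the test (0.64, adjusted p = 0.0567, edgeR). GIMEN rose from 1009, 1012 and 1005 CPM to 2013, 1895 and 1867 CPM, with tight replicates and no overlap (0.93 ± 0.07 SE, adjusted p = 1.8e-07).

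TIMP3, the matrix-bound inhibitor that also blocks ADAMTS enzymes, had 79, 82.2, 99.5 and 129 CPM untreated, 79.7, 76.9, 91 and 83.8 in S1D4, 20.6, 19.8, 19.3 and 63 in S2D4 and 47.3, 34.7, 34.8 and 50.6 in S2D30. The stage 2 libraries lay below all untreated and S1D4 ones, and S2D4 replicate 4 lay above its own group and above S2D30. It fell in S2D4 (-1.66 ± 0.31 SE, adjusted p = 0.000217, and -2.29 (adjusted p = 6.27e-09) without replicate 4) and in S2D30 (-1.22 ± 0.31 SE, adjusted p = 0.00215). From S1D4 to S2D4 it was -1.42 ± 0.31 (SE, adjusted p = 0.00105), and without replicate 4 -2.06 (adjusted p = 3.64e-08). Without replicate 4, the partial return from S2D4 to S2D30 passed the test (1.07, adjusted p = 4.98e-05), and with it the value was 0.44 ± 0.31 (SE, adjusted p = 0.252). GIMEN libraries had 839, 812 and 822 CPM untreated and 750.3, 937 and 986 CPM in D30, which overlapped (0.11 ± 0.09 SE, adjusted p = 0.299, and 0.23 (adjusted p = 0.00429) without D30 replicate 1). TIMP4 reached at most 0.167 CPM and was tested in neither line.

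**Figure D3:**
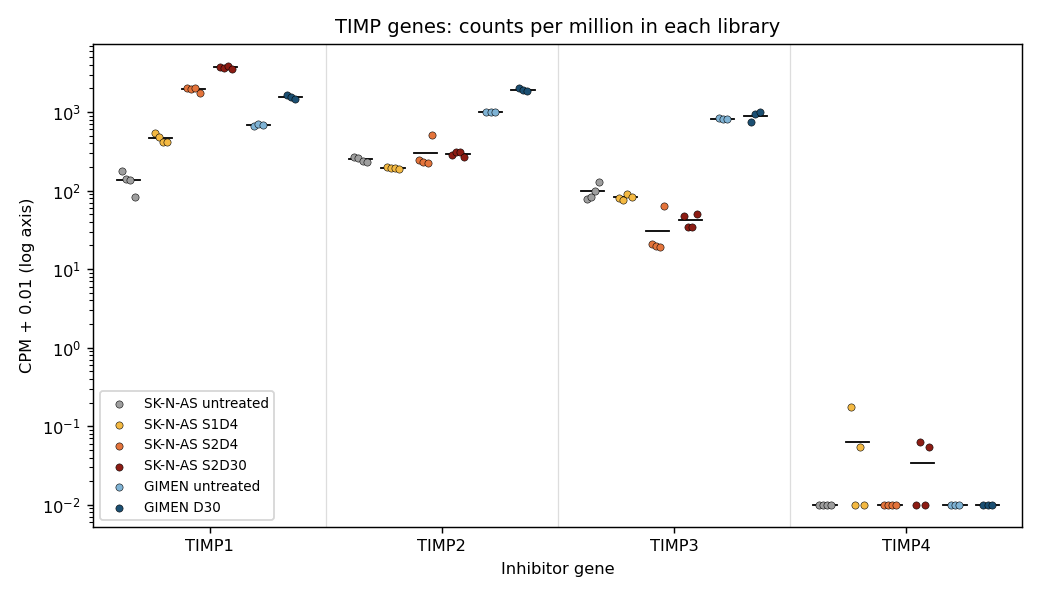
Levels in CPM (with 0.01 added, log axis) of the 4 TIMP genes in each library, coloured by group, with bars at group means. TIMP1 rises through the SK-N-AS groups to 3559.8 to 3857 CPM, TIMP2 rises in GIMEN, TIMP3 falls in stage 2 of SK-N-AS and less so in S2D4 replicate 4, and TIMP4 stays near 0.

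Levels of different genes were compared per kilobase of exon, as CPM divided by the merged length of all GENCODE exons of a gene (1541 bases for TIMP1 and 4933 for MMP2). This length can exceed that of the transcripts in use, so the order of genes with close levels depends on it. In untreated SK-N-AS the highest were TIMP1 at 87.7 ± 25.5, MMP2 at 74.7 ± 4.8 and TIMP2 at 44.3 ± 3.07 CPM per kilobase (SD, n = 4), of which the first and second did not differ beyond their spread. In S2D30 the order was MMP1 at 5182 ± 567, TIMP1 at 2391 ± 86.3, MMP10 at 114 ± 8.75, MMP3 at 106 ± 19.6 and MMP2 at 79.2 ± 20.1, with MMP10 and MMP3 within their spread. MMP1 RNA was thus above TIMP1 RNA per kilobase in S2D30 and below it in the other SK-N-AS groups. In untreated GIMEN MMP2 had 473 ± 3.58, TIMP1 444 ± 9.51 and MMP14 292 ± 9.18 CPM per kilobase (SD, n = 3). GIMEN D30 had TIMP1 at 1009.6 ± 64.1, MMP14 at 362 ± 162, TIMP2 at 342 ± 13.8, MMP2 at 215 ± 65.3, TIMP3 at 194 ± 27 and MMP1 at 163 ± 83.8. MMP14 and TIMP2 lay within their spread there, with MMP14 highest in D30 replicate 1, and so did MMP2, TIMP3 and MMP1. There MMP1 stayed below TIMP1.

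S2D4 replicate 4 did not shift all members alike. On the log2(CPM + 1) scale, 14 of the 34 tested members lay nearer to the S1D4 mean than to the mean of the other 3 S2D4 libraries, against 2 to 7 members when replicates 1 to 3 were each treated so. Over all 15810 genes the share was 36.8% for replicate 4 and 20.4% to 21.3% for the others. MMP1, MMP3, MMP10, MMP17, ADAMTS5, ADAMTS6, ADAMTS10 and TIMP3 were among the 14. MMP15, MMP28, ADAMTS4 and TIMP1, which also changed at stage 2, were in replicate 4 close to the other S2D4 libraries. Among the members outside the ranges of both groups, TIMP2, MMP2, ADAMTS7, ADAMTS9 and ADAMTS14 were higher in it, and MMP11, MMP23B and ADAMTS13 lower. ADAMTS7 and ADAMTS14 are thus counted among the 14 although they lay above every S1D4 library. Leaving it out also altered calls or folds not named above. From S1D4 to S2D4, ADAMTS14 became -1.17 (adjusted p = 0.00273), ADAMTS7 -0.92 (adjusted p = 0.000129) and ADAMTS18 2.36 (adjusted p = 0.0066), all called, and ADAMTS16 lost its call at -1.14 (adjusted p = 0.0689). MMP19 in S2D4 against untreated became 2.08 (adjusted p = 0.019). From S2D4 to S2D30, TIMP2 went from -0.04 ± 0.20 (SE, adjusted p = 0.871) to 0.34 (adjusted p = 0.000946). ADAMTS14 and MMP17 were called in that step with and without it, at -2.5 ± 0.46 (SE, adjusted p = 0.000253) and -1.74 (adjusted p = 0.000232), and at -2.53 ± 0.55 (SE, adjusted p = 0.00104) and -1.25 (adjusted p = 0.000177). Through the shared estimate of spread, the S1D4 counts against untreated became 12 higher and 8 lower without it (21.8% and 26% of all genes), and the S2D30 counts 13 and 17 (35.5% and 38.5%). The labels give no batch or note for this library, and a cause was not tested.

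**Figure D4:**
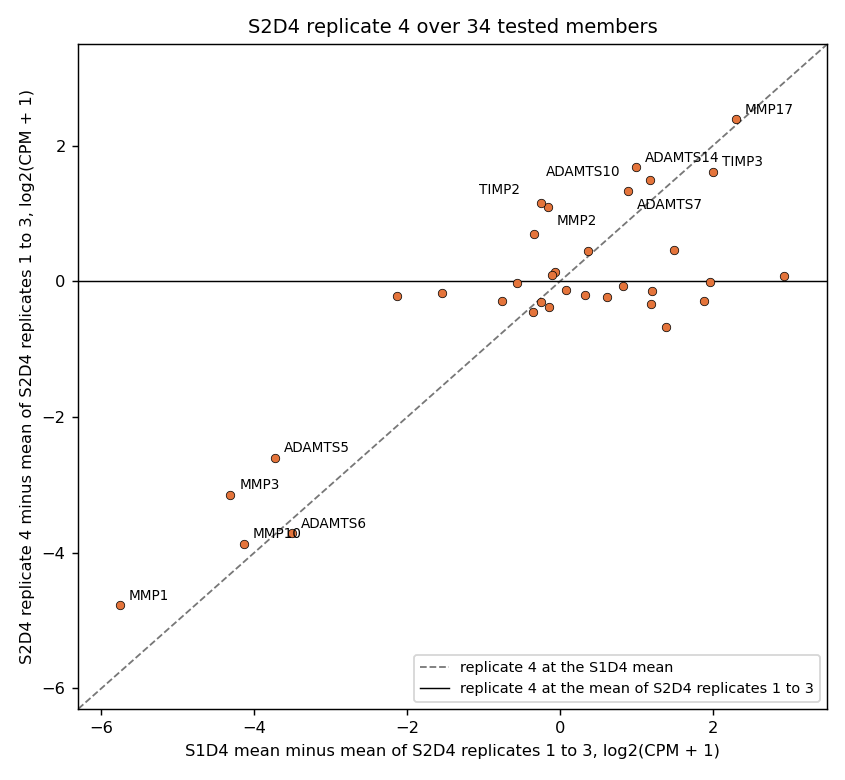
Each point is 1 of the 34 members tested in SK-N-AS, with the S1D4 mean (horizontal axis) and S2D4 replicate 4 (vertical axis) both given as the difference from the mean of S2D4 replicates 1 to 3 on the log2(CPM + 1) scale, and members more than 1 from the solid line labelled. MMP1, MMP10, MMP3, ADAMTS6 and MMP17 lie nearer to the dashed line, where replicate 4 equals the S1D4 mean, while others lie near the solid line, where it equals the rest of its group.

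Whether the lines differed in their 30-day change was tested as an interaction over the 14 untreated and 30-day libraries. Of 37 tested members, 8 had a change that was higher in SK-N-AS and 13 one that was lower, against 24.5% and 25.2% of 16246 genes. The lines received different doses and media, and only SK-N-AS had a first stage, so line and regimen cannot be told apart. MMP1 rose in both lines, but by 6.73 ± 0.53 (SE, adjusted p = 2.38e-08) more in SK-N-AS, and TIMP1 by 3.56 ± 0.25 (SE, adjusted p = 6.46e-09) more. MMP10 differed by 11.40 ± 0.66 (SE, adjusted p = 6.47e-10), a fitted value whose size depends on untreated SK-N-AS cells at the floor. For ADAMTS1 the difference did not pass the test (0.41 ± 0.21 SE, adjusted p = 0.115), nor for MMP9 (-0.57 ± 0.94 SE, adjusted p = 0.656), which does not show that these genes changed alike. The MMP9 value is a fitted one against untreated GIMEN at the floor, and ranged from -3.95 to -0.01 with 1 library left out. Several members that fell in SK-N-AS and passed no test as lower in GIMEN differed too, with MMP15 at -4.51 ± 0.28 (SE, adjusted p = 1.34e-09), MMP17 at -3.24 ± 0.31 (SE, adjusted p = 2.64e-07), MMP23B at -3.27 ± 0.40 (SE, adjusted p = 4.17e-06), MMP11 at -1.98 ± 0.23 (SE, adjusted p = 2.64e-06), ADAMTS4 at -2.96 ± 0.37 (SE, adjusted p = 4.4e-06) and ADAMTS7 at -2.71 ± 0.36 (SE, adjusted p = 9.45e-06), but ADAMTS13 (-0.43 ± 0.33 SE, adjusted p = 0.299) did not pass. ADAMTS6 at 2.79 ± 0.25 (SE, adjusted p = 1.42e-07) and MMP2 at 1.20 ± 0.26 (SE, adjusted p = 0.00102) also differed, with the fall in GIMEN. TIMP2 (-0.72 ± 0.12 SE, adjusted p = 0.000128) and TIMP3 (-1.34 ± 0.23 SE, adjusted p = 0.000154) were lower in the SK-N-AS change.

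Some members cannot be compared in this way. GIMEN was at the floor before and after for ADAMTS5, ADAMTS10, ADAMTS14, ADAMTS15, ADAMTS19 and MMP28, and SK-N-AS was at the floor before and after for MMP13, although MMP13 counts among the 8. The MMP3 difference did not pass the test (adjusted p = 0.995, edgeR), with all 3 untreated GIMEN libraries at 0, while DESeq2 called it (adjusted p = 0.000448). Its size depends on that group at 0.

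**Figure D5:**
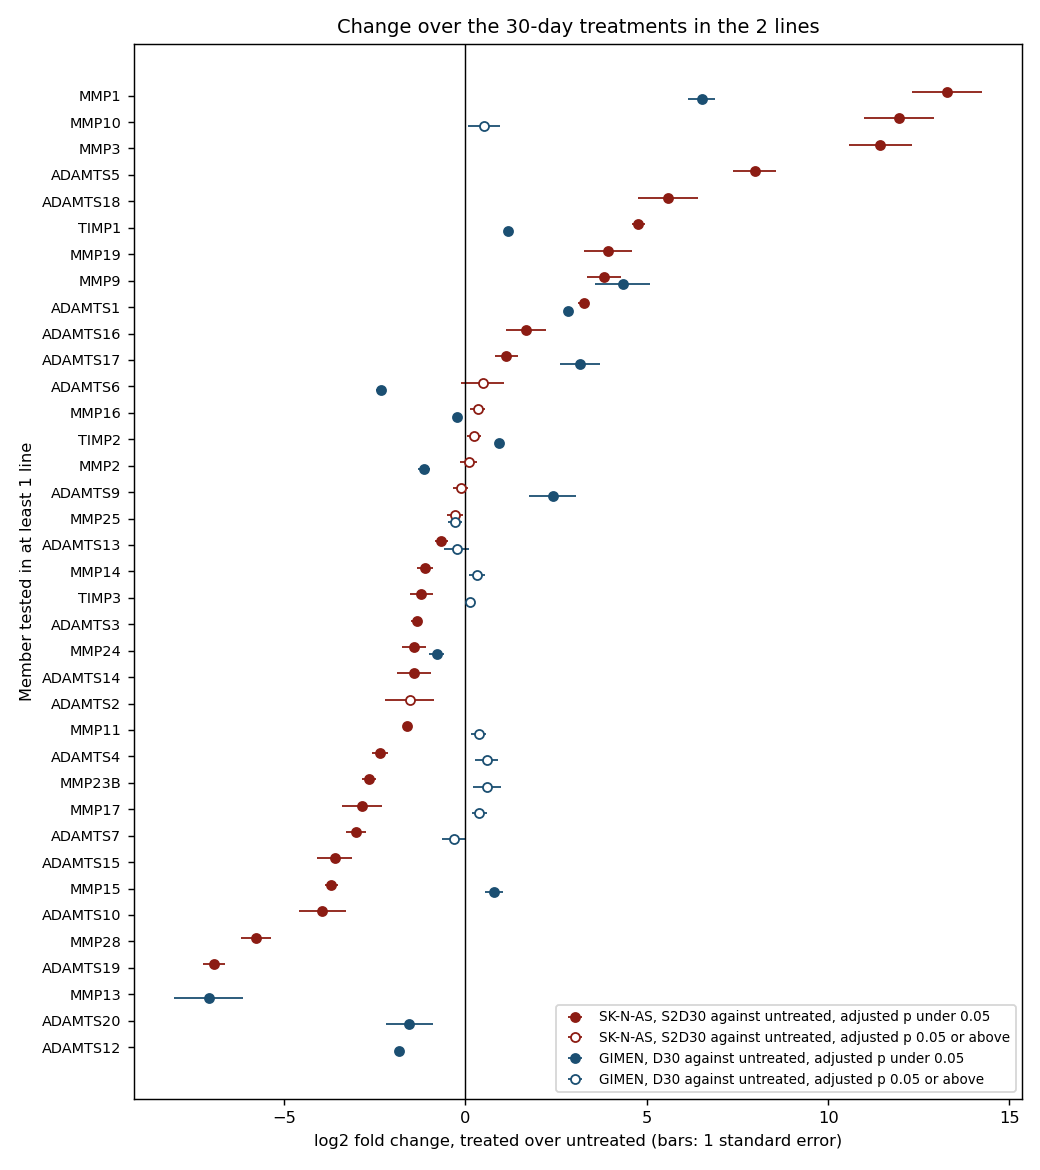
Log2 fold change with 1 standard error over the 30-day treatments for each member tested in at least 1 line (SK-N-AS in red, GIMEN in blue, filled where the adjusted p is under 0.05), ordered by the SK-N-AS value. MMP1, TIMP1, MMP9, ADAMTS1 and ADAMTS17 rise in both lines, MMP10 rises in SK-N-AS, and MMP15 falls in SK-N-AS (-3.71) and rises in GIMEN (0.79).

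Before treatment the lines already differed. Untreated SK-N-AS had 17 of 37 members higher than untreated GIMEN and 14 lower, against 38.6% and 35.3% of 16246 genes, with DMEM in one and RPMI in the other. All 3 expressed inhibitors were lower in SK-N-AS, with TIMP1 at -2.58 ± 0.18 (SE, adjusted p = 6.73e-10), TIMP2 at -2.26 ± 0.09 (SE, adjusted p = 4.12e-13) and TIMP3 at -3.32 ± 0.17 (SE, adjusted p = 1.67e-11). The abundant MMPs were lower too, with MMP2 at -2.90 ± 0.19 (SE, adjusted p = 3.57e-10) and MMP14 at -4.03 ± 0.27 (SE, adjusted p = 4.48e-10). Of the 18 tested ADAMTS genes, 12 were higher in SK-N-AS, among them ADAMTS9 (10.11 ± 0.28 SE, adjusted p = 7.54e-15) and ADAMTS7 (7.34 ± 0.21 SE, adjusted p = 7.13e-15), and 4 were lower, among them ADAMTS12 (-9.70 ± 0.24 SE, adjusted p = 1.86e-15). The ADAMTS9 value was 9.51 without untreated GIMEN replicate 1 and 10.93 without replicate 3. After treatment SK-N-AS had more TIMP1 CPM than treated GIMEN, while TIMP2 and TIMP3 levels remained below those of GIMEN, as levels scaled within each line.

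Genes around the families were read from lists written for this purpose with earlier results known. The plasminogen activator system, whose protease plasmin activates several MMPs, had 7 of 9 tested genes higher and 2 lower in S2D30, and 6 higher and 3 lower of 9 in GIMEN D30. Of all tested genes 33.8% were higher and 36.5% lower in S2D30, and 35.5% and 36% in GIMEN D30, and the counts of each list here stand beside these shares. In SK-N-AS SERPINB2, an inhibitor of plasminogen activators, went from 0.534 ± 0.219 to 724 ± 85.7 CPM (10.35 ± 0.53 SE, adjusted p = 3.73e-11). TFPI2, an inhibitor of plasmin, went from 3.08 ± 0.483 to 2008 ± 139.7 CPM in SK-N-AS (9.36 ± 0.16 SE, adjusted p = 2e-16) and from 116 ± 5.01 to 1254 ± 30.2 CPM in GIMEN (3.43 ± 0.07 SE, adjusted p = 9.16e-12). PLAUR, the urokinase receptor, rose in both lines (3.57 ± 0.17 SE, adjusted p = 1.26e-11 in SK-N-AS and 2.77 ± 0.11 (SE, adjusted p = 1.65e-09) in GIMEN). 

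Among activators and inducers, 2 of 5 tested genes rose and 1 fell in S2D30, and 3 rose and 1 fell in GIMEN D30. FURIN, which activates membrane-type MMPs inside the cell, rose in SK-N-AS (1.36 ± 0.10 SE, adjusted p = 4.51e-09), as did BSG, which induces MMPs in neighbouring cells (1.53 ± 0.09 SE, adjusted p = 1.84e-10). Other inhibitors and clearance receptors had 4 of 9 higher and 2 lower in S2D30, and 5 of 7 higher and 2 lower in GIMEN. A2M, a plasma protease trap, rose in both lines (6.82 ± 0.36 SE, adjusted p = 4.83e-11 and 0.86 ± 0.08 (SE, adjusted p = 2.79e-06)). SPOCK1, a proteoglycan that can inhibit membrane-type MMP action, rose in SK-N-AS (6.82 ± 0.15 SE, adjusted p = 2.77e-15) and fell in GIMEN (-3.83 ± 0.19 SE, adjusted p = 1.24e-08). The ADAMTS-like genes, which lack a protease domain, had 5 of 7 higher and 1 lower in S2D30, and 3 of 5 higher and 1 lower in GIMEN. THSD4 rose in both lines (2.99 ± 0.21 SE, adjusted p = 2.05e-09 and 1.12 ± 0.07 (SE, adjusted p = 4.19e-08)). In the list of ADAM and tolloid proteases, 6 of 14 rose and 7 fell in S2D30, and 5 of 10 rose and 3 fell in GIMEN. Of the ADAMTS substrates, 2 of 5 rose and 3 fell in S2D30, and 2 of 4 rose and 2 fell in GIMEN. THBS2 rose in both lines (6.15 ± 0.63 SE, adjusted p = 1.91e-07 and 1.39 ± 0.12 (SE, adjusted p = 1.4e-06)). RELN fell in SK-N-AS (-4.80 ± 0.19 SE, adjusted p = 2.19e-12) and THBS1 in GIMEN (-2.24 ± 0.07 SE, adjusted p = 2.67e-10). VCAN, the versican that ADAMTS1 and ADAMTS5 cleave, fell in both lines (-2.66 ± 0.25 SE, adjusted p = 5.71e-08 and -1.54 ± 0.06 (SE, adjusted p = 2.42e-09)).

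The members not described so far had few counts or none. ADAMTS8, MMP7, MMP23A, MMP26 and MMP27 were at the floor in every group of both lines, and MMP23A, MMP26 and MMP27 had no count in any library. For MMP23A 100% of the 75-base words are shared with MMP23B, so its lack of counts does not show a low level. Members at the floor in every GIMEN group numbered 15, and in every SK-N-AS group 6. MMP21 reached at most 0.245 CPM. At this depth, 3 counts correspond to 0.117 to 0.166 CPM as a group mean, and expression under that level was not detectable.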

How the data were processed

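RNA-seq was run on 22 total RNA libraries of 2 cell lines. The deposited table holds whole-number read counts per gene symbol made by the authors. The aligner, counter, genome build, annotation and use of read strand are not given in the sources used here. Samples were grouped by their labels, and table columns were matched to them by name.

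Counts were tested with edgeR 4.0.16 (R 4.3.3) by the quasi-likelihood F-test with TMM scaling and filterByExpr (minimum count 10, minimum total 15), in 1 model of the 16 SK-N-AS libraries, 1 of the 6 GIMEN libraries and 1 of 14 untreated and 30-day libraries. P-values were adjusted after Benjamini and Hochberg over all genes tested, and the SE is the fold change divided by the square root of F. CPM values use the scaling of the model they are shown for. The procedure was tested on simulated data. The members, gene lists and marker lists were chosen with earlier results of these data known. Every library's value is given for members with a group mean of at least 5 CPM that passed the test and changed by 1 or more on the log2 scale in a comparison within a line. Other members are given by range or a few values. From each related list at most 3 genes per line were eligible to be named, those with the largest called change and a group mean of at least 10 CPM.

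Exon lengths, shared 75-base words and opposite-strand overlap came from a GENCODE annotation, and upstream sequences from RefSeq. The alternatives were DESeq2 1.42.0, other scalings and filters, other sets of libraries, the replicate block and leaving out each library. No deposited column was left out.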

Additional observations from a re-analysis of the deposited data

Results flagged for a closer look

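In groups of 4 libraries, 1 library lay apart by Dixon's test at the 95% level in 20 of 131 groups checked over the 34 members tested in SK-N-AS, leaving out groups at the floor, where chance gives about 1 in 20. S2D4 replicate 4 was that library in 14 of the 20. It was the lowest of its group for 6 members. They were ADAMTS5 at 2.43 CPM (others 18.2 to 20.9), ADAMTS6 at 0.933 CPM (others 22.5 to 26.5) and MMP1 at 60.7 CPM (others 1604 to 1773). Further members were MMP10 at 1.23 CPM (others 30.7 to 32.9), MMP11 at 3.5 CPM (others 4.43 to 4.53) and MMP23B at 6.03 CPM (others 7.81 to 8.05). It was the highest of its group for 8 members. They were ADAMTS10 at 2.63 CPM (others 0.112 to 0.434), ADAMTS14 at 14.9 CPM (others 3.36 to 4.91) and ADAMTS7 at 342 CPM (others 131 to 143). Further members were ADAMTS9 at 259.9 CPM (others 159 to 163), MMP17 at 20.3 CPM (others 2.65 to 3.71) and MMP2 at 723 CPM (others 331 to 346). The last were TIMP2 at 514 CPM (others 223 to 242) and TIMP3 at 63.0 CPM (others 19.3 to 20.6). ADAMTS13 was lowest in S1D4 replicate 1 at 34.8 CPM, against 45.8 to 47.7 in the others. ADAMTS19 was lowest in untreated SK-N-AS replicate 3 at 16.6 CPM, against 21.9 to 22.7 in the others. ADAMTS19 was highest in S2D4 replicate 1 at 4.10 CPM, against 1.95 to 2.27 in the others. ADAMTS6 was highest in untreated SK-N-AS replicate 4 at 3.26 CPM, against 2.19 to 2.34 in the others. MMP25 was lowest in S1D4 replicate 1 at 1.92 CPM, against 2.86 to 3.04 in the others. MMP3 was highest in untreated SK-N-AS replicate 2 at 0.326 CPM, against 0 to 0.0316 in the others.

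The change over 30 days differed between the lines for 20 members by the interaction test of edgeR, besides MMP13, which was at the floor in SK-N-AS. Line and regimen cannot be told apart. The SK-N-AS change was higher for 7 members. On the log2 scale the differences were ADAMTS12 at 4.17 (adjusted p = 1.27e-06), ADAMTS6 at 2.79 (adjusted p = 1.42e-07), MMP1 at 6.73 (adjusted p = 2.38e-08) and MMP10 at 11.40 (adjusted p = 6.47e-10). Next came MMP19 at 7.98 (adjusted p = 1.34e-05), MMP2 at 1.20 (adjusted p = 0.00102) and TIMP1 at 3.56 (adjusted p = 6.46e-09). The SK-N-AS change was lower for 13 members. On the log2 scale the differences were ADAMTS17 at -2.07 (adjusted p = 0.00895), ADAMTS2 at -3.62 (adjusted p = 0.0328), ADAMTS3 at -2.14 (adjusted p = 0.00307) and ADAMTS4 at -2.96 (adjusted p = 4.4e-06). Next came ADAMTS7 at -2.71 (adjusted p = 9.45e-06), ADAMTS9 at -2.57 (adjusted p = 0.00158), MMP11 at -1.98 (adjusted p = 2.64e-06) and MMP14 at -1.45 (adjusted p = 0.00273). Next came MMP15 at -4.51 (adjusted p = 1.34e-09), MMP17 at -3.24 (adjusted p = 2.64e-07), MMP23B at -3.27 (adjusted p = 4.17e-06) and TIMP2 at -0.72 (adjusted p = 0.000128). The last was TIMP3 at -1.34 (adjusted p = 0.000154). The MMP10, MMP19 and ADAMTS2 sizes are fitted values against a group at the floor (untreated SK-N-AS, GIMEN D30 and untreated GIMEN). The ADAMTS2 value was lost without untreated GIMEN replicate 1 or 2 or D30 replicate 3 (adjusted p of 0.0534, 0.0868 and 0.312), and was -4.20 without D30 replicate 1. ADAMTS3 was -1.49 (adjusted p = 0.0448) without D30 replicate 3. ADAMTS9 was -1.98 without untreated GIMEN replicate 1 and -3.40 without replicate 3. MMP10 was 12.23 without D30 replicate 1, and MMP19 was 9.16 without untreated SK-N-AS replicate 2.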

How the results depend on the processing

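Of 354 counts of members under the alternatives, 353 stayed within 1.5 times the reported count. The exception was the S2D4 against S1D4 count of higher members, which was 7 rather than 11 when a log2 change of 1 or more in size was also asked. For single members, other settings left 1540 calls and directions as they were, strengthened 9 and weakened 17. Leaving out 1 library left 3207 as they were, strengthened 26, weakened 61 and reversed 20, none of which had been called. The 3207 include leave-outs of libraries in neither compared group, which could hardly move the fold change. Size was not judged in these numbers. MMP17 from S2D4 to S2D30 counts as unchanged at -2.53 with all libraries and -1.25 without S2D4 replicate 4.

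Some changes that had not been called turned sign when 1 library was left out, and the cause was not tested. Their log2 values ranged as follows over the libraries left out. In S1D4 against untreated MMP23B ranged from -0.0955 to 0.2289 and MMP24 from -0.4868 to 0.0792. In S2D4 against untreated ADAMTS9 ranged from -0.0957 to 0.2544, MMP2 from -0.1317 to 0.3457 and MMP24 from -0.3675 to 0.1991. In S2D30 against untreated ADAMTS9 ranged from -0.2266 to 0.003 and MMP2 from -0.0424 to 0.2122. From S1D4 to S2D4 MMP24 ranged from -0.0258 to 0.2639. From S2D4 to S2D30 ADAMTS10 ranged from -1.7803 to 0.1773, ADAMTS4 from -0.2456 to 0.0837 and MMP2 from -0.278 to 0.2143. In GIMEN MMP10 ranged from -0.2837 to 0.8451 and MMP14 from -0.117 to 0.4998. Between untreated lines MMP17 ranged from -0.0734 to 0.3449 and MMP24 from -0.1646 to 0.4163.

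With 1 library left out, the counts of members higher and lower than untreated ranged from 8 to 12 and 5 to 8 in S1D4, 9 to 12 and 12 to 15 in S2D4, 11 to 13 and 16 to 17 in S2D30, and 7 to 11 and 6 to 8 in GIMEN. With a replicate block these counts were 9 and 6, 12 and 13, 11 and 17, and 8 and 7. From S1D4 to S2D4 the block gave 11 and 14, from S2D4 to S2D30 10 and 11, for the line difference 8 and 13, and between untreated lines 17 and 13. Correlations of the deviations of same-numbered libraries ran from -0.106 to 0.311. The highest were between untreated SK-N-AS and S1D4, with 0.305, 0.276 and 0.311 for replicates 1, 2 and 4, each best matched by its own number, and 0.033 for replicate 3, best matched by another. Other pairs of groups were lower. The main models treated the samples as sharing only a number, and these values do not settle whether untreated and S1D4 libraries were paired. Upper-quartile scaling moved the median gene by 0.1528 between the untreated lines, where ADAMTS1 lost its call (adjusted p of 0.0644). Depth limits the members near the floor of 3 counts. The line difference of MMP3 was called by DESeq2 (6.83, adjusted p = 0.000448).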
